A study of Mus musculus with 6 samples.

Results

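The p53 target genes are genes whose transcription the tumor suppressor p53 raises when a cell meets DNA damage or another stress. p53 is held at low levels by MDM2, which marks it for degradation and is itself encoded by a p53 target, so that the pathway limits its own activity. Stabilized p53 induces inhibitors of the cell cycle such as p21, proteins of the BCL2 family that open the mitochondrial outer membrane, and genes of DNA repair and metabolism, and in the intestine the cells at the crypt base are known for their readiness to undergo p53-dependent apoptosis after irradiation. The 10 genes described here are Cdkn1a, Mdm2, Ccng1, Phlda3, Trp53inp1, Bax, Bbc3, Pmaip1, Eda2r and Zmat3. They are established targets, chosen with earlier results of these data known, although no value of these libraries enters the rule that lists them. They are 10 of the 24736 gene symbols in the deposited table, and they lie on 9 chromosomes, with Bax and Bbc3 both on chromosome 7.

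RNA sequencing was performed on crypts from the intestine of 3 wild-type (WT) mice and 3 mice labelled Mtg16-/-, with 1 library per mouse. All 6 were males of 12 weeks without treatment. MTG16 is a transcriptional co-repressor of the myeloid translocation gene family, and the comparison asks how its loss changes gene expression in crypt cells. Crypts were released in cold buffer with 2 mM EDTA for 30 min, lysates were frozen and thawed in 2 cycles, and 200 ng of total RNA per library was depleted of ribosomal RNA and amplified in 14 PCR cycles. The labels describe the knockout as induced by CRISPR, whereas the study describes Mtg16-/- mice that were received from another laboratory, and this difference could not be settled. Neither source names a deletion limited to the epithelium. Values are TPM, a transcript level per length that is scaled to the same total in each library, so the depth behind a value is unknown.

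Cbfa2t3, the gene that encodes MTG16 (GRCm38, chr8:122625136-122699332), had a TPM of 3.67, 6.69 and 4.52 in WT mice and of 4.62, 6.43 and 3.23 in those labelled Mtg16-/-. The groups overlapped, so its level does not tell the genotypes apart and each direction below rests on the labels. The 11 epithelial markers summed to 13475, 11756 and 11515 TPM in WT mice and to 12473, 10866 and 10703 TPM in those labelled Mtg16-/-, with Krt19 the most abundant on average. The markers of fibroblasts summed to at most 4.80 TPM in any library, those of smooth muscle to at most 4.28 TPM, those of endothelium to at most 2.92 TPM and those of enteric neurons and glia to at most 1.75 TPM, and Lum and Sox10 were listed at 0 in each library. Immune markers were higher. Those of B cells and plasma cells summed to between 20.3 and 81 TPM and those of macrophages and myeloid cells to between 20.5 and 31.9 TPM, with Jchain and Itgam the most abundant on average. WT replicate 1 stood apart from the other libraries, at -47.75 on a first principal component that held 47.7% of the variance and on which the other 5 libraries lay between -6.30 and 36.3.

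With no block for the replicate number, none of the p53 target genes passed the test of a difference between the genotypes. In each of them the values of the groups overlapped. The replicate block, whose basis the labels do not state, changed the call of Cdkn1a, as given below. Differences are given as Mtg16-/- minus WT on the log2(TPM + 1) scale, on which changes at low TPM are understated, and were tested with limma across the 12268 genes whose mean TPM reached 1. Of the 10 genes 9 passed this filter, and Eda2r did not. At an adjusted p under 0.1, limma called 0 of the 9 genes, beside 0.0326% of all tested genes, and at an unadjusted p under 0.05 it also counted 0 of the 9, beside 14.6% of all tested genes. The same 14.6% applies beside each count at this unadjusted p from all 6 libraries in the lists below. The 3 values of one group lay wholly above those of the other in 0 of the 9 genes, while this was so in 21% of all tested genes, with Mtg16-/- above WT in 9.94% and below WT in 11.1%. The two-sided exact permutation test over the 6 libraries, which cannot go below p = 0.1 with 3 mice against 3, gave p between 0.3 and 0.9 for the 10 genes.

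The differences of the 9 tested genes ran from -0.44 for Cdkn1a to 0.26 for Trp53inp1, with a median of -0.07 beside a median of -0.03 over all tested genes. Of these differences 7 were below 0 and 2 were above 0. The 95% interval of the difference held 0 in each of the 9 genes. In 8 of them the interval lay between -1 and 1, so that neither a doubling nor a halving of TPM + 1 was within it, and the exception was Cdkn1a. For genes of low level this does not hold for TPM itself, and the interval of Phlda3 still included a halving of its TPM. A p that misses the threshold does not show that a gene was equal in both genotypes, and the intervals given below are the range of differences that these 6 libraries allow.

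**Figure D1:**
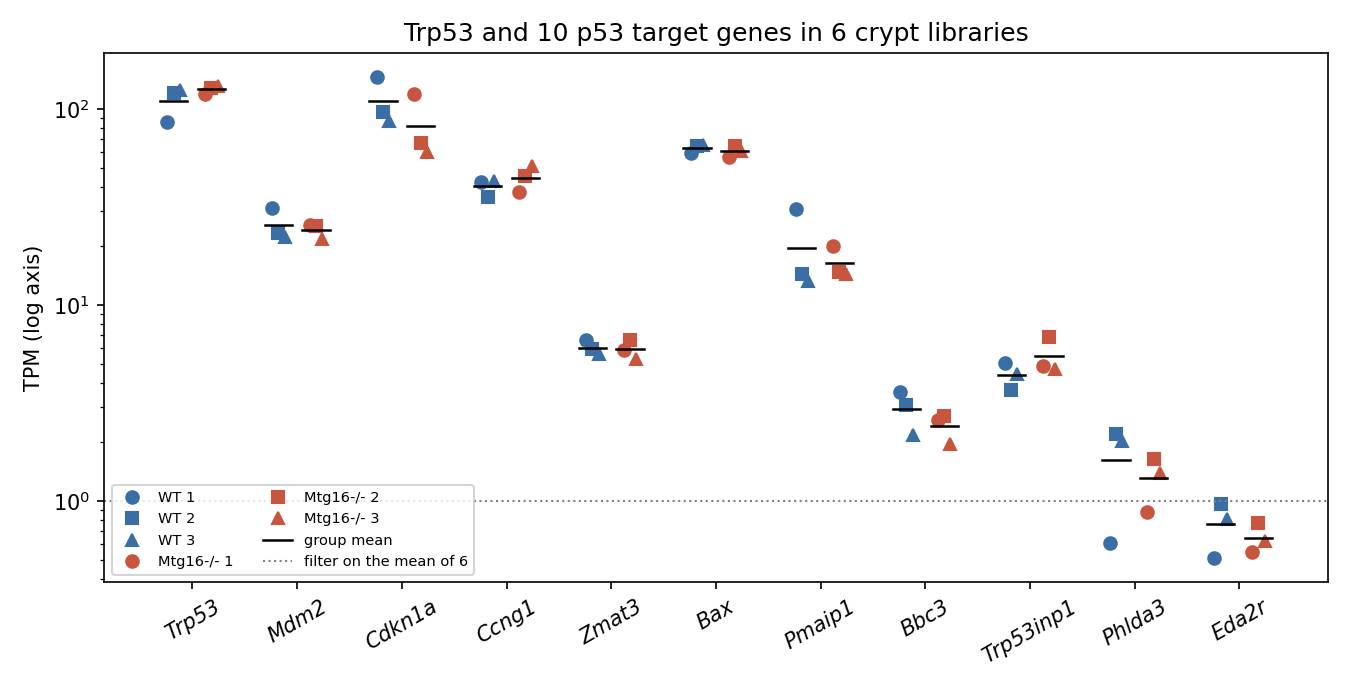
TPM of Trp53 and of the 10 p53 target genes in each of the 6 libraries on a log axis, with 1 point per mouse, black lines for the group means and a dotted line at the filter of 1 on the mean of the 6 libraries. The points of the genotypes overlap in each gene, and from the lowest to the highest library the spread is 3.57-fold for Phlda3, 2.41-fold for Cdkn1a, 2.33-fold for Pmaip1 and 1.15-fold for Bax.

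The gene of p53 itself and its negative regulators come first. Trp53 had a TPM of 86.2, 120.7 and 124 in WT mice and of 119.8, 128 and 131 in those labelled Mtg16-/-. WT replicate 1 was the lowest library and the other 5 lay close together, so the groups overlapped. The difference was 0.21 (95% interval -0.16 to 0.58, adjusted p = 0.546 from limma), and it was 0.042 without WT replicate 1. The level of Trp53 was higher than that of 90.1% of the tested genes. Mdm2 (chr10:117688875-117710758), which encodes the ubiquitin ligase of p53, had a TPM of 31.4, 23.3 and 22.1 in WT mice and of 25.6, 25.1 and 21.6 in those labelled Mtg16-/-. WT replicate 1 was the highest, and the other 5 libraries differed little. Its difference was -0.07 (95% interval -0.44 to 0.30, adjusted p = 0.860 from limma), and it was 0.08 without WT replicate 1. Mdm2 relative to Trp53 within a library was 0.364 in WT replicate 1 and between 0.165 and 0.213 in the other 5 libraries.

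Mdm4, the partner of MDM2 that blocks the activation domain of p53, had levels close to those of Mdm2, at 34.6, 25.5 and 28.1 TPM in WT mice and at 25.1, 36.2 and 22.5 TPM in those labelled Mtg16-/-, again with overlap. Some inputs of the pathway were low or listed at 0. Cdkn2a, whose product ARF inhibits MDM2, was at most 0.5 TPM and was listed at 0 in 3 libraries. Of the relatives of p53, Trp63 was listed at 0 in each library and Trp73 was at most 0.16 TPM. Over the 19 listed genes of p53 and its regulators 16 were tested, limma called 0, 0 were higher and 1 was lower at an unadjusted p under 0.05, and the median difference was 0.08, or 0.037 without WT replicate 1.

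Among the targets that act on the cell cycle, Cdkn1a was on average over the 6 libraries the most abundant of the 10 genes. It encodes p21, the inhibitor of cyclin-dependent kinases through which p53 stops the cycle, and lies at chr17:29090979-29100722. Cdkn1a had a TPM of 145, 96.7 and 86.9 in WT mice and of 119, 67.0 and 60.5 in those labelled Mtg16-/-. WT replicate 1 was the highest, Mtg16-/- replicate 1 lay above both other WT libraries, and Mtg16-/- replicates 2 and 3 were the lowest, so the groups overlapped through a single Mtg16-/- library. The means were 109.7 ± 31.4 (SD, n = 3) and 82.1 ± 31.9 (SD, n = 3), and the difference was -0.44 (95% interval -1.10 to 0.22, adjusted p = 0.483 from limma, exact permutation p = 0.3). The SD within groups on the log2 scale was 0.46, larger than in 89.8% of the tested genes. Cdkn1a had the largest difference of the 9 genes, and single libraries set its size. The difference was -0.74 without Mtg16-/- replicate 1 (adjusted p = 0.234 from limma) and -0.22 without WT replicate 1 (adjusted p = 0.770 from limma). With the replicate number as a block, limma called Cdkn1a at an adjusted p of 0.0664. The labels do not say that a number marks a shared litter or day.

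Cdkn1b, which encodes the related inhibitor p27 and is not among the 10 genes, had the opposite sign, with 33.4, 35.4 and 39.0 TPM in WT mice and 39.7, 48.1 and 47.8 TPM in those labelled Mtg16-/-. The groups did not overlap, but limma did not call the difference of 0.32 (adjusted p = 0.322). Within a library, Cdkn1a relative to Cdkn1b was 4.36, 2.73 and 2.23 in WT mice and 3.00, 1.39 and 1.26 in those labelled Mtg16-/-. Mtg16-/- replicate 1 therefore lay within the WT range and the other Mtg16-/- libraries lay below it.

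Ccng1 (chr11:40748552-40755309) encodes cyclin G1, which binds a protein phosphatase and acts on MDM2. It had a TPM of 42.4, 35.7 and 43.1 in WT mice and of 37.5, 45.5 and 50.9 in those labelled Mtg16-/-. Mtg16-/- replicates 2 and 3 were the highest libraries, and Mtg16-/- replicate 1 lay within the WT range. The difference was 0.14 (95% interval -0.21 to 0.48, adjusted p = 0.684 from limma), and it was 0.25 without Mtg16-/- replicate 1, 0.051 without WT replicate 2 and 0.037 without Mtg16-/- replicate 3. Zmat3 (chr3:32334792-32365665) encodes an RNA-binding zinc finger protein and was among the steadiest of the 10 genes, at 6.61, 5.94 and 5.61 TPM in WT mice and 5.89, 6.60 and 5.27 TPM in those labelled Mtg16-/-. WT replicate 1 and Mtg16-/- replicate 2 were nearly equal at the top, and the difference was -0.03 (95% interval -0.39 to 0.33, adjusted p = 0.944 from limma).

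The targets that promote apoptosis include Bax, Bbc3 and Pmaip1 of the BCL2 family. BAX forms pores in the mitochondrial outer membrane, and Bax (chr7:45461695-45466903) had a TPM of 59.5, 64.7 and 65.5 in WT mice and of 56.8, 65.1 and 61.1 in those labelled Mtg16-/-. All 6 libraries lay within 1.15-fold of each other, and the SD within groups of 0.09 was larger than in 5.75% of the tested genes. The difference was -0.05 (95% interval -0.32 to 0.21, adjusted p = 0.852 from limma), the narrowest interval of the 9 genes. It was 0.03 after quantile normalization, and between -0.099 and -0.0026 with each library left out in turn.

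Bak1, which encodes the other pore-forming protein of this family and is not among the 10 genes, was more abundant per length than Bax and had another pattern. It had 255 TPM, 224 TPM and 229 TPM in WT mice and 198 TPM, 171 TPM and 175 TPM in those labelled Mtg16-/-. The groups did not overlap, with Mtg16-/- below WT, and limma did not call the difference of -0.38 (95% interval -0.67 to -0.09, adjusted p = 0.282). Bax relative to Bak1 was 0.233, 0.289 and 0.286 in WT mice and 0.286, 0.381 and 0.349 in those labelled Mtg16-/-.

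Bbc3 (chr7:16308398-16318334) encodes PUMA, a BH3-only protein that releases BAX and BAK from their inhibitors. It was low, at 3.58, 3.07 and 2.17 TPM in WT mice and 2.57, 2.72 and 1.94 TPM in those labelled Mtg16-/-. WT replicates 1 and 2 were the highest and WT replicate 3 lay among the Mtg16-/- libraries. The difference was -0.20 (95% interval -0.70 to 0.30, adjusted p = 0.675 from limma), and single libraries moved it. It was -0.35 without WT replicate 3, when the remaining values did not overlap, -0.08 without WT replicate 1 and -0.10 without Mtg16-/- replicate 3.

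Pmaip1 (chr18:66458604-66465558) encodes NOXA, a BH3-only protein that binds MCL1. It had a TPM of 31.0, 14.4 and 13.3 in WT mice and of 19.99, 14.7 and 14.3 in those labelled Mtg16-/-. WT replicate 1 stood far above the other libraries, Mtg16-/- replicate 1 came next, and the remaining 4 lay between 13.3 and 14.7. The difference was -0.16 (95% interval -0.86 to 0.55, adjusted p = 0.827 from limma) and turned to 0.21 without WT replicate 1 (adjusted p = 0.665 from limma). Its SD within groups, 0.49, was the largest of the 10 genes on the log2(TPM + 1) scale, which narrows the spread of low genes, and larger than in 91.2% of the tested genes. In TPM the spread from lowest to highest library was 2.33-fold for Pmaip1 and widest for Phlda3, at 3.57-fold.

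The transcripts of proteins that PUMA and NOXA bind were also measured. Mcl1 had a TPM of 117.6, 86.8 and 90.7 in WT mice and of 98.3, 92.1 and 86.5 in those labelled Mtg16-/-, and Bcl2l1, which encodes BCL-XL, had 42.9, 32.5 and 36.7 TPM in WT mice and 36.3, 30.4 and 26.9 TPM in those labelled Mtg16-/-. Both were highest in WT replicate 1, as Pmaip1 and Bbc3 were, and both overlapped between the groups. Bcl2l11, which encodes the BH3-only protein BIM and is not among the 10 genes, lay between 5.51 and 7.80 TPM with a difference of 0.02. Of the 16 tested genes of the BCL2 family and caspase activation, limma called 0, 0 were higher and 2 were lower at an unadjusted p under 0.05, and the median difference was -0.07, or 0.01 after quantile normalization and -0.0045 without WT replicate 1. In 3 of the 16 (18.8%, beside 21% of all tested genes) the groups did not overlap, each with Mtg16-/- below WT, and Cycs, the gene of cytochrome c, had the lowest difference of these at -0.55 (adjusted p = 0.272 from limma).

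Trp53inp1 (chr4:11156441-11174379) encodes a stress-induced protein that enhances p53 activity and takes part in autophagy. It had a TPM of 5.06, 3.67 and 4.44 in WT mice and of 4.87, 6.85 and 4.71 in those labelled Mtg16-/-. Mtg16-/- replicate 2 was the highest library, and WT replicate 1 lay above Mtg16-/- replicates 1 and 3. The difference of 0.26 (95% interval -0.20 to 0.71, adjusted p = 0.544 from limma) was the highest of the 9 genes. It was 0.35 without WT replicate 1, when the remaining groups no longer overlapped, and 0.11 without Mtg16-/- replicate 2.

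Phlda3 and Eda2r were near or below 1 TPM. Phlda3 (chr1:135766085-135769134) encodes a protein that competes with the kinase AKT for membrane lipids, and had a TPM of 0.61, 2.18 and 2.03 in WT mice and of 0.88, 1.63 and 1.39 in those labelled Mtg16-/-. The libraries numbered 1 were the lowest of their group in both genotypes. The difference was -0.13 (95% interval -0.86 to 0.60, adjusted p = 0.868 from limma), and without WT replicate 1 it was -0.45 (adjusted p = 0.529 from limma) with groups that did not overlap. Eda2r (chrX:97333837-97377234), the receptor of the ectodysplasin isoform EDA-A2, had a TPM of 0.51, 0.96 and 0.81 in WT mice and of 0.55, 0.77 and 0.62 in those labelled Mtg16-/-. Its library order was the same as that of Phlda3, with WT replicate 2 the highest and WT replicate 1 the lowest. The difference of the means was -0.09 with no test by limma, and the exact permutation p was 0.6. It was -0.20 without WT replicate 1 and -0.0079 without WT replicate 2. The ligand gene Eda and the related receptor gene Edar were at most 0.16 TPM and 0.24 TPM. Of the 6 listed genes of this receptor branch 3 were tested and limma called 0, with 1 higher and 0 lower at an unadjusted p under 0.05. In all 3 the groups did not overlap, beside 21% of all tested genes, with Tnfrsf19, which encodes the receptor TROY, at 0.61 (adjusted p = 0.336 from limma; 0.35 without Mtg16-/- replicate 2) and Traf3, which encodes a signaling adaptor, at -0.19 (adjusted p = 0.525 from limma) as the ends.

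The 10 genes therefore differed far more from each other than between genotypes. Their mean TPM over the 6 libraries ran from 0.703 for Eda2r to 95.9 for Cdkn1a, a 136-fold range, with 5 genes under 10 TPM and 5 above. Among the tested genes, Cdkn1a, Bax and Ccng1 had higher levels than 87.5%, 80.5% and 71.3%, whereas Phlda3 and Bbc3 exceeded 3.83% and 10.5%. The 10 genes summed to 326, 250.5 and 246 TPM in WT mice and to 273, 236 and 222 TPM in those labelled Mtg16-/-. Cdkn1a made up 44.6% of this sum in WT replicate 1 and 43.4% in Mtg16-/- replicate 1, and 27.2% in Mtg16-/- replicate 3, while Bax made up 18.3% in WT replicate 1 and 27.5% in Mtg16-/- replicate 3.

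WT replicate 1 was the highest library for 5 of the 9 tested genes, Cdkn1a, Mdm2, Bbc3, Pmaip1 and Zmat3, and Mtg16-/- replicate 3 was the lowest for 4 of them, Cdkn1a, Mdm2, Bbc3 and Zmat3. Over all tested genes WT replicate 1 was the highest in 31.4% and Mtg16-/- replicate 3 the lowest in 31.5%. Of the 9 genes, 7, 4 and 3 lay above their mean over the 6 libraries in WT replicates 1, 2 and 3, and 4, 7 and 2 did so in Mtg16-/- replicates 1, 2 and 3, so that Mtg16-/- replicate 2 equalled WT replicate 1 in this count. Without WT replicate 1, 5 of the 9 differences were above 0 and 4 below, with a median of 0.03, and Mdm2, Pmaip1 and Zmat3 changed sign. The groups then did not overlap in 2 of the 9 genes, Phlda3 and Trp53inp1, beside 31.5% of all genes tested without that library.

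Markers of differentiated enterocytes moved with the same libraries. The 12 enterocyte markers summed to 36543, 12445 and 15498 TPM in WT mice and to 12660, 6956 and 6408 TPM in those labelled Mtg16-/-. Apoa1, the most abundant, had 9430 TPM in WT replicate 1 and 1570 TPM in Mtg16-/- replicate 3. WT replicate 1 was the highest library and Mtg16-/- replicates 2 and 3 were the lowest for both the marker sum and Cdkn1a, whereas between them Mtg16-/- replicate 1 lay above WT replicate 3 for Cdkn1a and below it for the marker sum. None of the 12 markers was at 0. The 12 markers had differences below 0 and a median of -1.17, with 8 at an unadjusted p under 0.05 and 0 called by limma. Without WT replicate 1 the median was -0.71 with 5 at an unadjusted p under 0.05, beside 1398 of the 12216 genes tested without that library. In tissue, p21 is known mainly from epithelial cells that have left the cell cycle, and in a bulk sample fewer cells of a type and less RNA per cell cannot be told apart. Whether the share of enterocytes had a part in the levels of Cdkn1a and Pmaip1 was not tested.

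Transcripts of T cells were also present. The 8 markers of T cells and intraepithelial lymphocytes summed to 483.5, 142 and 274.5 TPM in WT mice and to 229, 182 and 78.8 TPM in those labelled Mtg16-/-, with Gzma the most abundant at 274.8 TPM in WT replicate 1, and none of them was at 0. The sum was highest in WT replicate 1, as Cdkn1a, Pmaip1 and Mdm2 were, and in it Mtg16-/- replicate 1 lay below WT replicate 3, as in the enterocyte sum. The 10 stem cell markers summed to 958, 1497 and 1648 TPM in WT mice and to 1773, 2361 and 2023 TPM in those labelled Mtg16-/-, in the opposite order to Cdkn1a at both ends of the WT group. The 8 Paneth cell markers summed to 9267, 20363 and 12321 TPM in WT mice and to 30900, 25166 and 25722 TPM in those labelled Mtg16-/-. Median differences were -0.81 for T cell, 0.55 for stem cell and 1.05 for Paneth cell markers, or -0.32, 0.35 and 0.73 without WT replicate 1. At an unadjusted p under 0.05 limma counted 1 of 8, 6 of 10 and 7 of 8, beside 14.6% of all tested genes. The part of these cells in the levels of the p53 target genes was not tested.

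**Figure D2:**
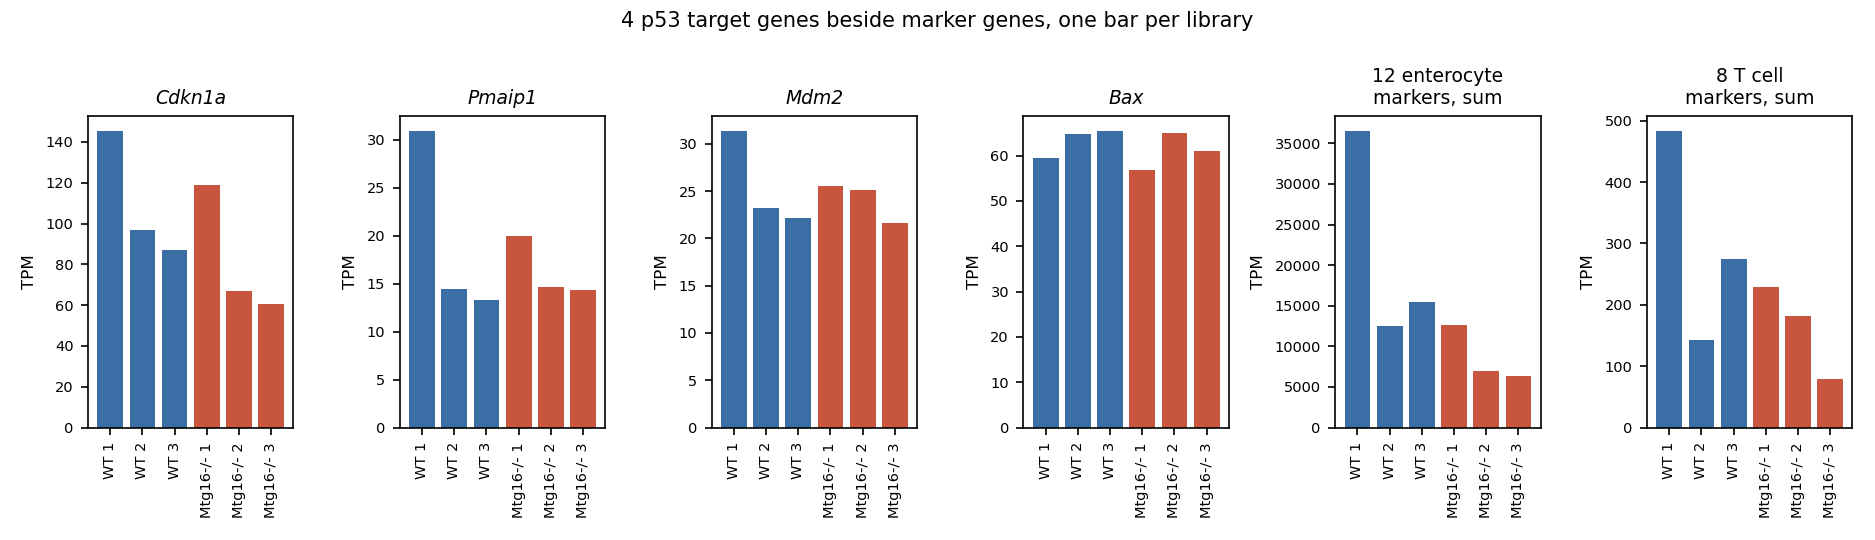
TPM of Cdkn1a, Pmaip1, Mdm2 and Bax and the summed TPM of 12 enterocyte markers and 8 T cell markers, with 1 bar per library (blue, WT; red, Mtg16-/-) and each vertical axis starting at 0. WT replicate 1 is the highest library in each panel but that of Bax, where the 6 libraries lie within 1.15-fold.

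Genes known to respond to tissue dissociation and stress also had unequal levels. The 13 listed genes, among them Fos, Jun, Egr1 and heat shock genes, summed to 531, 335 and 402 TPM in WT mice and to 361, 318 and 233.5 TPM in those labelled Mtg16-/-. Zfp36 was the most abundant on average, and Hspa1a was listed at 0 in Mtg16-/- replicates 1 and 2. Their differences were below 0 in 12 of 13 genes with a median of -0.54, beside -0.07 for the 9 p53 target genes, and without WT replicate 1 the median was -0.25 over 12 tested genes. Hspa1b was the lowest at -2.08 (adjusted p = 0.104 from limma). Limma called Hspa1b without WT replicate 1, at -2.29 (adjusted p = 0.0548), with robust moderation (adjusted p = 0.0967) and with the replicate block (adjusted p = 0.0132). It had 7.21, 8.51 and 15.4 TPM in WT mice and 2.07, 1.66 and 1.06 TPM in those labelled Mtg16-/-. WT replicate 1 had the highest and Mtg16-/- replicate 3 the lowest sum, as for Cdkn1a and Mdm2, and their part in those levels was not tested.

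Other p53 targets were read beside the 10 genes. Of 51 other targets 48 were tested and limma called 0, with a median difference of 0.05. At an unadjusted p under 0.05, 3 were higher and 4 lower, which is 14.6% of the 48, beside 14.6% of all tested genes. The groups did not overlap in 7, of which 4 were above WT and 3 below. Fas, the gene of a death receptor, was set beside Cdkn1a. It had 17.4, 8.73 and 7.64 TPM in WT mice and 10.4, 5.81 and 5.36 TPM in those labelled Mtg16-/-, and its library order was that of Cdkn1a in all 6 positions. Fas was singled out after its values were seen, and how many of all tested genes share this order was not counted. Its difference of -0.55 was not called (adjusted p = 0.457 from limma). It was -0.21 without WT replicate 1.

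The wider targets whose groups did not overlap had differences in both directions and unlike roles. In the growth arrest list, Sfn, which encodes the cell cycle inhibitor 14-3-3 sigma, had 177, 181 and 235 TPM in WT mice and 131, 121 and 123 TPM in those labelled Mtg16-/-, a difference of -0.65 (95% interval -0.97 to -0.32, adjusted p = 0.224 from limma). Psrc1, a gene of the mitotic spindle, had a difference of 0.48 in the same list, or 0.17 without WT replicate 1. Among the cell death genes Trp53i13 lay at -0.65, and among the secreted and other targets Sulf2, which encodes a sulfatase of the cell surface, lay at -1.24 (95% interval -1.96 to -0.51, adjusted p = 0.250 from limma). Sulf2 had 73.83, 35.23 and 38.03 TPM in WT mice and 26.85, 17.85 and 14.43 TPM in those labelled Mtg16-/-. WT replicate 1 thus stood far above the other WT libraries. Ddb2, which encodes a sensor of ultraviolet damage in DNA repair, had 7.87, 7.61 and 7.83 TPM in WT mice and 10.7, 12.1 and 9.75 TPM in those labelled Mtg16-/-, a difference of 0.43 (95% interval 0.11 to 0.76, adjusted p = 0.281 from limma). Ephx1, the gene of a detoxifying epoxide hydrolase in the metabolism list, had a difference of 0.45. These genes were named because their groups did not overlap, which was so in 14.6% of the 48 other targets and in 21% of all tested genes.

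**Figure D3:**
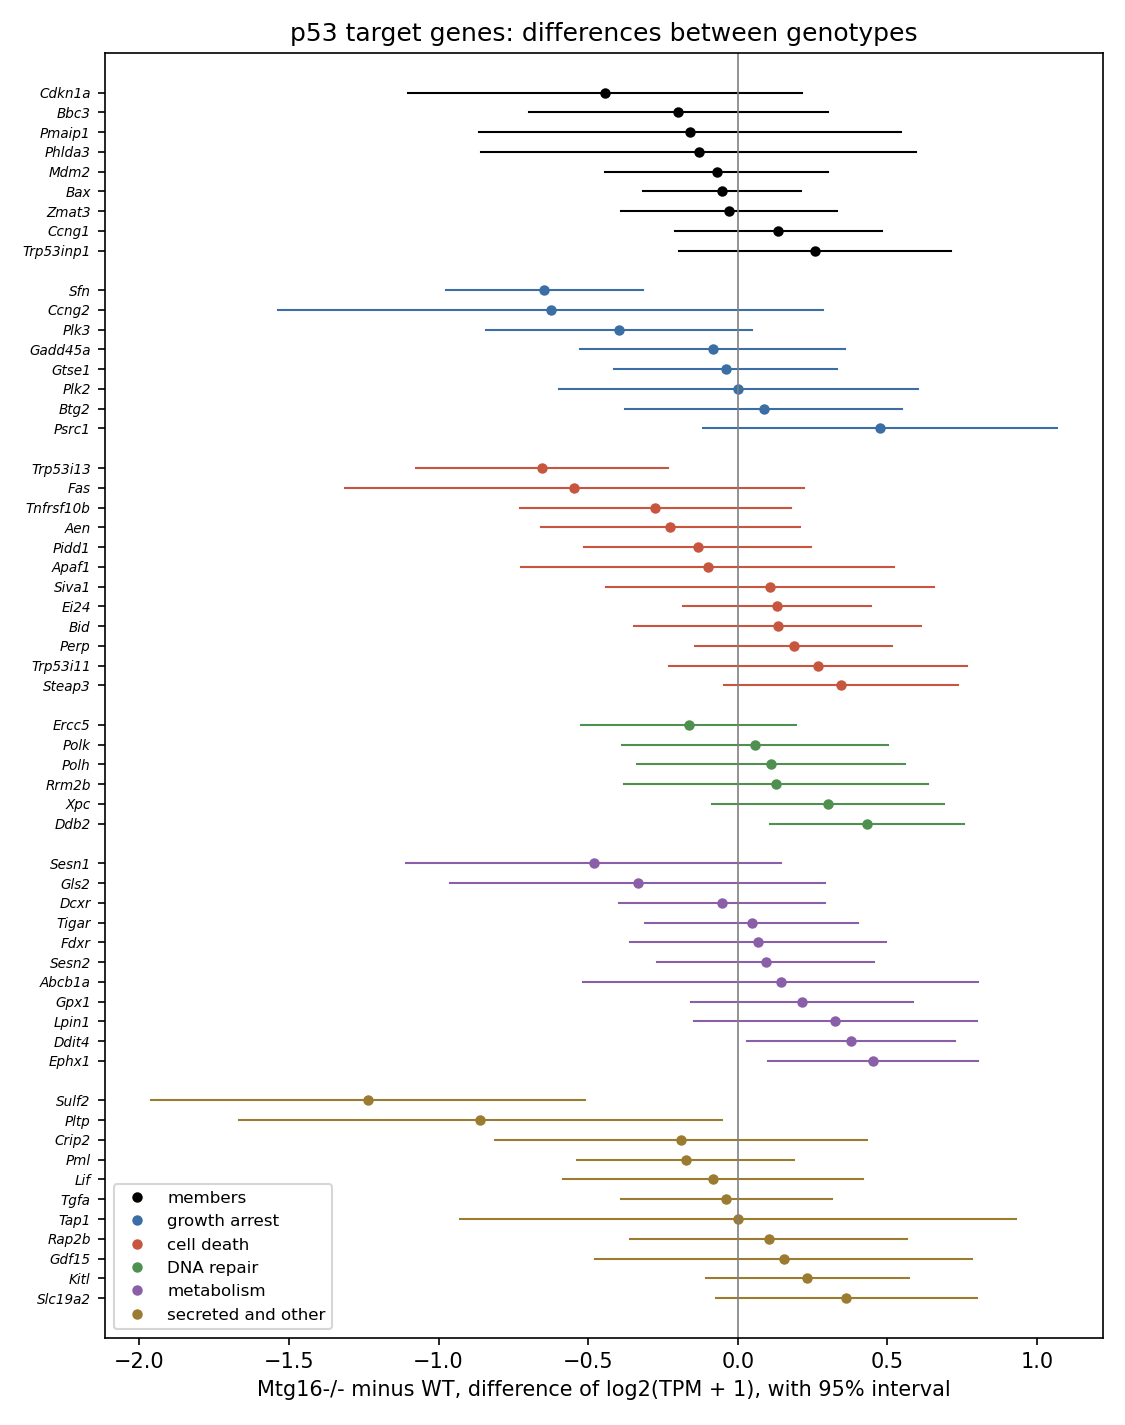
Difference of log2(TPM + 1) between Mtg16-/- and WT, with its 95% interval from limma, for the 9 tested members of the 10 p53 target genes (black) and for 48 other p53 targets by role (colors). The intervals of all 9 black points cross 0, and the widest differences in the colored groups are those of Sulf2 and Pltp.

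The genes on which p21 acts were compared with Cdkn1a. Of the 12 cell cycle genes that p53 is known to lower through p21, limma called 0, 1 was higher and 0 were lower at an unadjusted p under 0.05, and the median difference was 0.21, or 0.03 without WT replicate 1. Ccnb2, the gene of cyclin B2, had 53.9, 72.3 and 79.7 TPM in WT mice and 81.0, 96.6 and 100.4 TPM in those labelled Mtg16-/-, a difference of 0.44 (adjusted p = 0.312 from limma), or 0.28 without WT replicate 1. WT replicate 1, the highest library for Cdkn1a, was the lowest for 11 of the 12 genes, beside 26.4% of all tested genes. Mtg16-/- replicate 3, the lowest for Cdkn1a, was the highest for 6 of the 12, beside 17.9%. This place of WT replicate 1 was shared by other lists. It was also the lowest library for 10 of 10 stem cell markers and 7 of 8 Paneth cell markers, and for 0 of 12 enterocyte markers. Whether p21 had a part in the levels of the 12 genes was not tested. Of the 17 tested genes of G1 control, among them inhibitors, cyclins, kinases and the retinoblastoma family, limma called 0, 2 were higher and 1 was lower at an unadjusted p under 0.05, with Ccnd1 at 0.64 (0.39 without WT replicate 1) and Ccnd3 at -0.61 as the ends among the genes whose groups did not overlap. Cdkn1a overlapped where these 2 cyclins did not.

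The promoters were searched for the p53 response element, a 20-base motif of 2 adjoining 10-base half-sites, in the RefSeq windows of GRCm38.p6 that run from 250 bases before to 50 bases after a transcription start. The element reads the same on both strands, the central C and G of each half-site were required, and no spacer was allowed between the half-sites. Windows were found for 7 of the 10 genes, and not for Trp53inp1, Pmaip1 and Zmat3. At most 3 mismatches, a limit chosen after the matches were seen, were met by 3 of the 7 genes and by 1.63% of the 27025 genes with a window, and at most 1 mismatch by 2 of the 7 and by 0.0814% of all. Of the 43 other p53 targets with a window, 5 (11.6%) had at most 3 mismatches and 1 (2.33%) had at most 1. These differences in share were not tested. The matches are shown in capitals with 10 bases on each side, since they are a feature that genes of unlike level share. The match in Cdkn1a lies 51 bases upstream of the start that opens its annotated span (chr17:29090928-29090947, plus strand, 1 mismatch). Its other start lies further downstream within the span. In Ccng1 it lies 195 bases upstream of a start within the annotated span (chr11:40755462-40755481, minus strand, 1 mismatch). In Bbc3 it lies within the annotated span, 97 bases upstream of an internal start (chr7:16309486-16309505, plus strand, 3 mismatches). The other 2 windows of Bbc3 had at best 7 and 8 mismatches, and the other window of Cdkn1a had 7.
Cdkn1a: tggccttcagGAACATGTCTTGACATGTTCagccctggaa
Ccng1: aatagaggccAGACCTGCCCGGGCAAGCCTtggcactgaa
Bbc3: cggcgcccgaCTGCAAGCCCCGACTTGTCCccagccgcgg
A match is a description of the letters in this window and not a binding site. The 3 genes had differences of -0.44, 0.14 and -0.20, none of them called by limma, and mean levels of 95.9, 42.5 and 2.68 TPM. The best alignments in Phlda3, Bax, Mdm2 and Eda2r had 5, 7, 9 and 9 mismatches in these windows.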

How the data were processed

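RNA sequencing of intestinal crypts from 6 mice was analysed, 3 WT and 3 labelled Mtg16-/-, with groups and replicate numbers taken from the labels. The authors deposited TPM values from RSEM by gene symbol, rounded to 2 decimals, and the submitters' processing notes name cutadapt 1.9.1, STAR 2.5.2a, RSEM 1.3.0 and the build mm10. TPM keeps no read number, so the depth is unknown and no interval that needs it is given. Values were transformed as log2(TPM + 1), and the 12268 genes whose mean TPM reached 1 were tested with limma 3.58.1 in R 4.3.3 (lmFit and eBayes with an intensity trend, no covariates), with Benjamini-Hochberg adjustment over all tested genes and calls at an adjusted p under 0.1. An exact permutation test, two-sided, was added for single genes. The calculation was tested on simulated data.

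The members and gene lists were chosen with earlier results of these data known. All 10 members are named, together with Cbfa2t3, the closest partners or relatives of members, any list gene with an adjusted p under 0.1, and from each list the genes with the highest and lowest difference among those whose groups did not overlap. For the lists of cell type markers the text gives sums, and for some of them counts, in place of these genes. Genes outside the rule are Fas and Pltp, named after their values were seen, the most abundant marker of a list, genes listed at 0, and Fos, Jun and Egr1 as examples of a list. Positions were taken from RefSeq for GRCm38.p6, the assembly of mm10. Alternatives were another pseudocount, other filters, median-ratio rescaling or quantile normalization, moderation without the intensity trend or with robust settings, the replicate number as a block, a stricter threshold and each library left out.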

Additional observations from a re-analysis of the deposited data

How the results depend on the processing

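The number of p53 target genes called by limma was 0 under each alternative but the replicate block. The count of those at an unadjusted p under 0.05 was also 0, except for Cdkn1a under the block and without Mtg16-/- replicate 1. Leaving out each library in turn gave 0 called p53 target genes, 0 to 2 with groups that did not overlap and 0 to 40 called genes of all tested. The 2 were Phlda3 and Trp53inp1 without WT replicate 1, and Cdkn1a and Ccng1 without Mtg16-/- replicate 1, and Bbc3 was the 1 without WT replicate 3. Groups of 2 against 3 overlap less often, with 27.7% to 38.8% of all tested genes apart. The median difference of the p53 target genes stayed within the spread between libraries of 0.11. Of all tested genes 4 were called, 2 higher and 2 lower, and the number was 0 with no filter on low values, 15 at a mean TPM of at least 5, 0 after median-ratio rescaling, 1 after quantile normalization (1 higher and 0 lower), 0 without the intensity trend, 20 with robust moderation and 0 at an adjusted p under 0.05. The number was 40 without WT replicate 1, 9 without WT replicate 3, 1 without Mtg16-/- replicate 1, 2 without Mtg16-/- replicate 2 and 0 without Mtg16-/- replicate 3. The causes were not tested.

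With the replicate number as a block, 1201 genes were called, 385 higher and 816 lower, which is 9.79% of those tested, and 1 of the p53 target genes was called, Cdkn1a at a difference of -0.44 with an adjusted p of 0.0664 from limma, where its adjusted p lay between 0.234 and 0.811 under the other alternatives. The labels do not say that a number marks a shared litter or day. For the pairs numbered 1, 2 and 3, Pearson's r of the deviations from the mean of the genotype was 0.429, 0.0753 and 0.237, computed across genes, so not every pair exceeded 0.1, and 5 of the 6 libraries correlated best with their own number, a hint from the data and not from the design.

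Signs turned in genes with differences near 0. Bax was 0.031 and Mcl1 0.017 after quantile normalization. Leaving out single libraries moved the difference of Mdm2 between -0.16 and 0.079, of Phlda3 between -0.45 and 0.044, of Pmaip1 between -0.37 and 0.21, of Zmat3 between -0.099 and 0.039, of Cbfa2t3 between -0.26 and 0.15, of Mdm4 between -0.29 and 0.046, of Mcl1 between -0.16 and 0.055 and of Bcl2l11 between -0.097 and 0.12. The causes were not tested. Of 512 values over 37 tested genes, those of the rule with Fas and Pltp, 17 turned sign and 21 passed the threshold, 16 of them with the block and the other 5 in Hspa1b and a Paneth cell gene. The threshold is one that none of these genes passed under the settings used for the results above. With 3 mice a group and no read numbers, small differences and low levels such as those of Phlda3 and Eda2r cannot be resolved.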
